A study of Mus musculus with 9 samples.

Results

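The collagen chain genes encode the alpha chains from which collagen molecules are built. The 44 genes described here, from Col1a1 to Col28a1, were picked by symbol from the 53353 entries of a table of RNA-seq counts, and all 44 were found there. The table covers 9 libraries of cells from the dental papilla of C57BL/6 mice, in 3 groups of 3. Spheres were grown for 8 days from cells of passage 2, on plates to which cells attach poorly, in a basal medium with methylcellulose. Monolayer cells were grown attached to plates, in the same basal medium with 2% fetal bovine serum, 1% growth supplement and antibiotics. One label gives 8 days for the monolayer and the growth protocol gives 14 days. The remaining group is labelled as primary dental papilla cells, without a passage or culture time, whereas the series design names cells of passage 2 in its place. Attachment and medium thus differed together between spheres and monolayer, and so did culture time if the growth protocol is right. A passage is stated for spheres but not for monolayer. These differences cannot be told apart. Nothing in the labels tells whether replicate libraries stem from different animals or cultures, so p-values measure only the spread between libraries, which may be technical.

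Every collagen molecule is a trimer of alpha chains wound around each other, and a type is defined by which chains it contains. Fibrillar collagens such as types I and III form banded fibrils, whose diameter is set in part by the minor fibrillar types V and XI. Other classes form basement membrane sheets, beaded microfibrils and anchoring fibrils, sit on the surface of fibrils or are held in the cell membrane. In the tooth, the dental papilla is the mesenchyme from which pulp and odontoblasts arise. Odontoblasts secrete the predentin matrix, which consists largely of type I collagen, whereas pulp also contains types III, V and VI.

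The 9 libraries held 35957376 to 52047254 counts. The unit of expression is CPM, in which counts are scaled to a common library size with TMM factors, or CPM per kilobase of the principal transcript where genes are compared with each other. The stated gene lengths are whole spans, so counts include reads in introns. Per-kilobase values divide these counts by the length of a spliced transcript. Genes with long introns may therefore be overstated in ranks, shares and ratios between genes. Of the 44 genes, 28 overlap another entry, and the strand setting of the counting is not given in the sources used here, so reads of overlapping genes cannot be separated. Col10a1, a collagen of hypertrophic cartilage, lies wholly inside another gene and is listed at 0 in all libraries, so no level is given for it. Of 10 markers of dental papilla mesenchyme, 9 had counts in all groups, and their sum was 1438 to 1522 CPM in spheres, 1712 to 1787 CPM in monolayer and 1490.2 to 1525 CPM in primary cells. The remaining one, Dlx1, lies wholly inside another gene and was listed at 0. The sum of 8 odontoblast and osteoblast markers was 21999.9 to 22708 CPM in spheres, 555 to 593 CPM in monolayer and 1838 to 1873 CPM in primary cells. Dmp1 held most of it in spheres, at 18351 CPM on average, and 6 of the 8 were highest in spheres. Alpl and Runx2 were highest in primary cells, Alpl at 237 CPM in spheres, 263 CPM in monolayer and 1409 CPM in primary cells, and Runx2 at 174 CPM in spheres, 178 CPM in monolayer and 208 CPM in primary cells.

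Collagen chain genes took a smaller share of the counts in spheres than in both other groups. Together they held 4.42 ± 0.12% of the counts in spheres, 15.6 ± 0.38% in monolayer and 9.91 ± 0.082% in primary cells (SD, n = 3 libraries each). Between spheres and primary cells, chains other than type I differed more than type I itself. Type I chains held 3.76% of the counts in spheres, 11.6% in monolayer and 6.08% in primary cells. All other collagen chains held 0.662% in spheres, 4.03% in monolayer and 3.83% in primary cells. Type I thus made up 85.0 ± 0.13% of collagen counts in spheres, 74.3 ± 0.38% in monolayer and 61.4 ± 0.31% in primary cells. In bulk RNA, fewer cells of a type and less RNA per cell cannot be told apart.

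**Figure D1:**
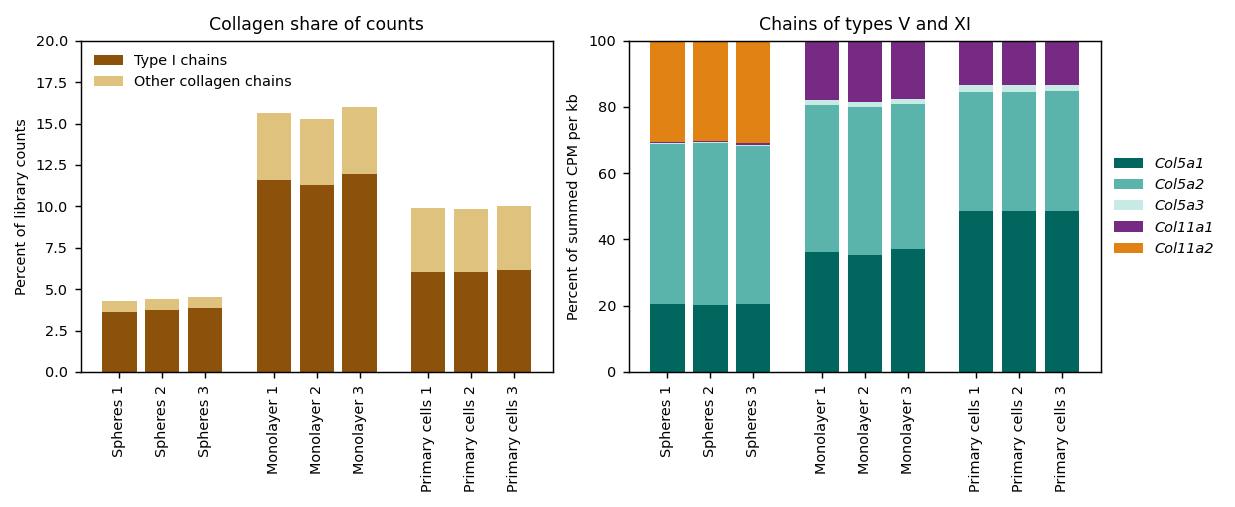
Left, percent of library counts in type I chains and in the other collagen chains, 1 bar per library. Right, percent of the summed CPM per kb of the type V and XI chains held by each chain in each library. The 3 sphere bars on the left end between 4.30 and 4.55%, and Col11a2 holds 30.7% on average of the type V and XI level in spheres.

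A filter on low counts left 15675 genes, 39 of them collagen chain genes, and each was tested with edgeR's quasi-likelihood test at an adjusted p of 0.05. In spheres against monolayer, 9 of the 39 were higher and 27 lower, where 40.7% of all tested genes were higher and 37.7% lower (78.4% in either direction). Beyond 2-fold (edgeR's glmTreat), 7 were higher and 25 lower, against 12.6% and 15.4% of all tested genes. In spheres against primary cells, 8 were higher and 30 lower, where 38.9% of all tested genes were higher and 40.6% lower (79.6% in either direction). Beyond 2-fold, 7 were higher and 25 lower, against 11.3% and 16.5% of all tested genes. The median log2 change of the 39 genes was -2.35 against monolayer and -2.43 against primary cells, while the median over all tested genes was 0.04 and -0.017.

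Monolayer and primary cells differed less in these genes. There, 12 were higher and 20 lower in monolayer, where 34.4% of all tested genes were higher and 36.9% lower (71.3% in either direction), and 7 did not pass the test. Beyond 2-fold, 5 were higher and 5 lower, against 6.18% and 7.82% of all tested genes, and the median log2 change was -0.12, against -0.029 over all tested genes. Scaling by total counts in place of TMM moved all genes by -0.296 on the log2 scale in monolayer against primary cells. It then left 8 collagen chain genes higher and 26 lower, and 3043 of all tested genes higher and 8856 lower. The same scaling moved all genes by 0.305 in spheres against monolayer, where it left 8627 of all tested genes higher and 4171 lower, and by 0.008 in spheres against primary cells. The comparisons with spheres share the sphere libraries and are given side by side for each gene.

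**Figure D2:**
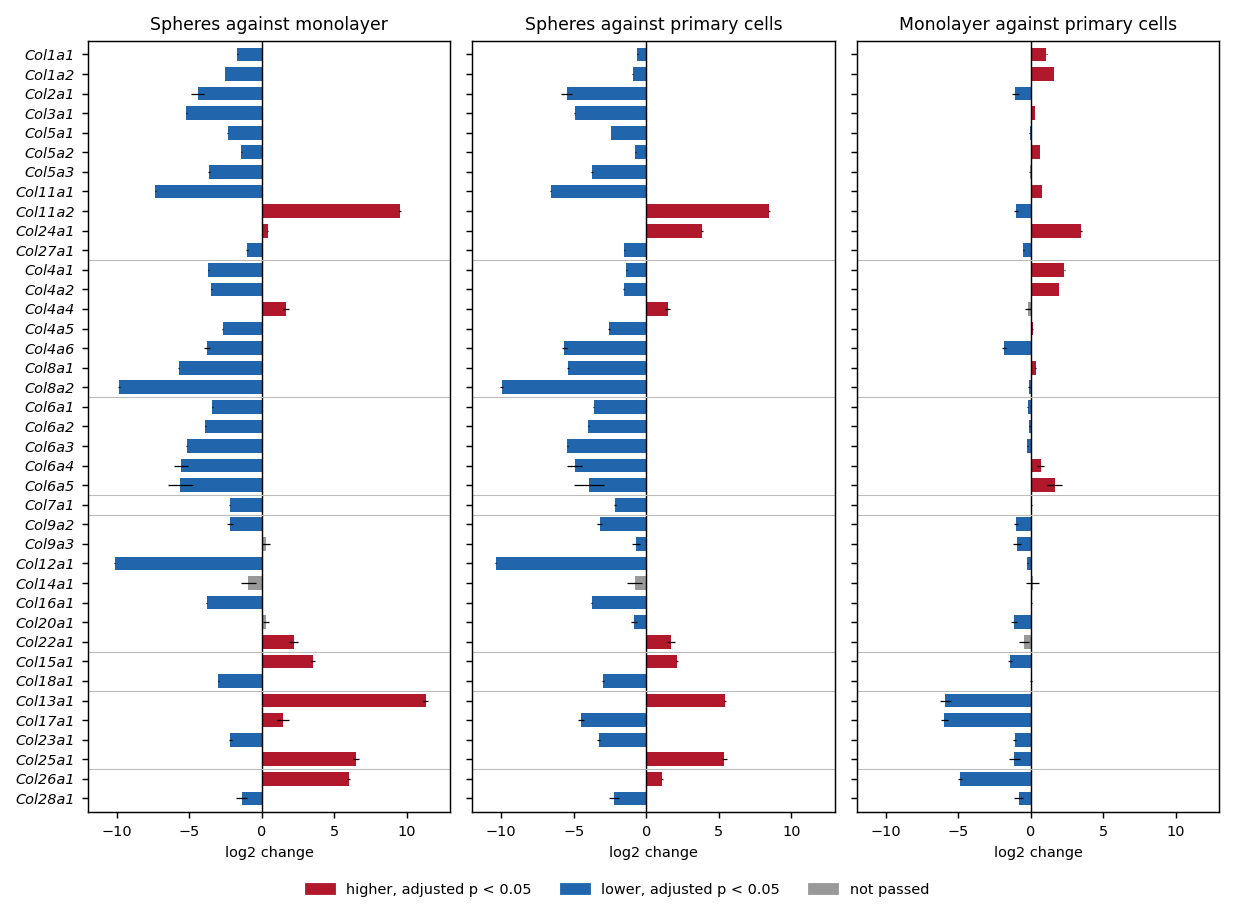
Log2 change (x axis) of the 39 tested collagen chain genes in the 3 comparisons, with the standard error as a line, ordered by class from fibrillar at the top to other chains at the bottom. Bars for spheres reach from -10.1 for Col12a1 to 11.3 for Col13a1 against monolayer, whereas most bars of monolayer against primary cells are short.

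Of the 11 fibrillar chain genes, 9 were lower and 2 were higher in spheres, in both comparisons. In monolayer against primary cells 6 were higher, 4 lower and 1 did not pass. Scaling by total counts turned this last split to 5 higher and 5 lower. Over all tested genes, 40.7% were higher and 37.7% lower in spheres against monolayer, and 38.9% and 40.6% in spheres against primary cells. In monolayer against primary cells, 34.4% were higher and 36.9% lower. These shares stand beside the counts of each class below. Col1a1 (chromosome 11, 94936224 to 94953042), the more abundant chain of type I, stood at 26006, 27063 and 27867 CPM in spheres, 87018, 82604 and 91645 CPM in monolayer and 41035, 41087 and 42411 CPM in primary cells. It was 3.23-fold lower in spheres than in monolayer (log2 change -1.69 ± 0.032 (SE), edgeR adjusted p = 2.87e-21) and 1.54-fold lower than in primary cells (log2 change -0.62 ± 0.031 (SE), edgeR adjusted p = 1.15e-13). No sphere library reached any library of the other groups.

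Col1a2, the partner chain of type I, stood at 7743, 7999.9 and 8252 CPM in spheres, 46524, 45477 and 47226 CPM in monolayer and 15406, 15383 and 15344 CPM in primary cells. Its levels in spheres were 5.80-fold lower than in monolayer and 1.92-fold lower than in primary cells (adjusted p = 1.58e-31 and 2.25e-22, edgeR). Both type I chains were higher in monolayer than in primary cells, Col1a1 by 2.1-fold and Col1a2 by 3.02-fold. Type I trimers usually contain more of the first chain than of the second. The ratio of Col1a1 to Col1a2 in counts per kilobase was 3.04 ± 0.0114 in spheres, 1.69 ± 0.0561 in monolayer and 2.43 ± 0.0504 in primary cells (SD, n = 3 each), without overlap between groups. With the union of all exons as length the same ratio was 6.39 in spheres, 3.55 in monolayer and 5.11 in primary cells, so its absolute value depends on the transcript chosen. Another length scales the ratio alike in all libraries, so the fold between groups cannot change and is not checked by it.

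Type III collagen, made from Col3a1 alone and mixed with type I in soft tissues, had larger decreases in spheres than type I. Col3a1 stood at 284, 292 and 295 CPM in spheres, 10814, 10572 and 10781 CPM in monolayer and 8902, 8667 and 8955 CPM in primary cells. That is 36.9-fold lower in spheres than in monolayer (log2 change -5.21 ± 0.029 (SE), edgeR adjusted p = 2.44e-36) and 30.4-fold lower than in primary cells (log2 change -4.93 ± 0.029 (SE), edgeR adjusted p = 4.92e-36). The ratio of Col3a1 to Col1a1 per kilobase was 0.0115 ± 0.000172 in spheres, 0.131 ± 0.00559 in monolayer and 0.227 ± 0.00363 in primary cells. In log2 units it was -3.52 ± 0.065 in spheres against monolayer and -4.31 ± 0.032 against primary cells (SD of the difference). With 3 libraries against 3, the exact two-sided permutation test cannot go below p = 0.1, which it reached here. Of 27 such tests on 9 chain ratios, 26 reached that smallest p (0.104 after Benjamini-Hochberg adjustment), so none passed 0.05.

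The type V chains, which start type I fibrils and limit their width, were also lower in spheres. Col5a1 stood at 1023, 1045 and 1082 CPM in spheres, 5390.1, 5110.5 and 5586 CPM in monolayer and 5753, 5547 and 5731 CPM in primary cells. All sphere libraries were below all others. Col5a1 was 5.11-fold lower in spheres than in monolayer and 5.41-fold lower than in primary cells (edgeR adjusted p = 8.22e-29 and 5.94e-29). Col5a2, the usual partner of Col5a1, stood at 1902, 1971 and 1976 CPM in spheres, 5187, 5074 and 5169 CPM in monolayer and 3344, 3249 and 3333 CPM in primary cells. Here the sphere libraries were lowest too, by 2.64-fold against monolayer and 1.70-fold against primary cells, and the monolayer was 1.55-fold higher than primary cells. Col5a3, a rarer type V chain, stood at 11.3, 13.2 and 14.6 CPM in spheres, 168, 155 and 170.3 CPM in monolayer and 180.3, 174 and 170.3 CPM in primary cells. The sphere libraries were again below all others. Their level of Col5a3 was 12.6-fold lower than in monolayer and 13.4-fold lower than in primary cells, the largest decrease of the type V chains in both comparisons. The ratio of Col5a1 to Col5a2 per kilobase was 0.424 ± 0.00697 in spheres, 0.822 ± 0.0290 in monolayer and 1.35 ± 0.00591 in primary cells, without overlap between groups. Between monolayer and primary cells, the libraries of Col5a1 and of Col5a3 overlapped. The lower call of Col5a1 there (log2 change -0.082, edgeR adjusted p = 0.0174) was lost without monolayer library 2 or primary library 1 or 3 (adjusted p = 0.107, 0.0667 and 0.059). It was also lost with RLE size factors (0.194) and with DESeq2 (0.249). Col5a3 did not pass there (log2 change -0.090, edgeR adjusted p = 0.107), but was called lower with no filter on low counts (0.0224), in a fit of the 2 groups alone (0.0352), without sphere library 1 (0.0386) and when scaled by total counts (2.72e-08).

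The type XI chains changed in opposite directions in spheres. Type XI collagen starts the fibrils of cartilage, and in other tissues its chains also join type V chains in mixed trimers. Col11a1 (chromosome 3, 114030540 to 114220718) stood at 14.6, 14.8 and 14.9 CPM in spheres, 2434, 2429 and 2414 CPM in monolayer and 1441, 1395 and 1423 CPM in primary cells. All sphere libraries were far below the others. In spheres it was 164-fold lower than in monolayer (log2 change -7.36 ± 0.037 (SE), edgeR adjusted p = 1.59e-37) and 96.0-fold lower than in primary cells (log2 change -6.58 ± 0.036 (SE), edgeR adjusted p = 9.88e-37). Col11a2 (chromosome 17, 34039437 to 34066685) stood at 982, 999 and 1046 CPM in spheres, 1.26, 1.20 and 1.66 CPM in monolayer and 2.30, 2.84 and 3.33 CPM in primary cells. The sphere libraries were far above the others, which were at 3.33 CPM or less. In spheres it was 734-fold higher than in monolayer (log2 change 9.53 ± 0.076 (SE), edgeR adjusted p = 1.35e-29) and 357-fold higher than in primary cells (log2 change 8.48 ± 0.068 (SE), edgeR adjusted p = 2.16e-29). Neither gene overlaps another entry, and no sphere library overlapped another group in either gene.

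Within the type V and XI chains the make-up per kilobase therefore differed. Col11a2 held 30.7 ± 0.36% of their summed level in spheres, 0.0145 ± 0.0024% in monolayer and 0.0378 ± 0.0070% in primary cells. Col11a1 held 0.316 ± 0.0043% in spheres, 18.0 ± 0.43% in monolayer and 13.3 ± 0.056% in primary cells. Col5a1 held 20.5% in spheres, 36.3% in monolayer and 48.6% in primary cells, and Col5a2 held 48.2% in spheres, 44.2% in monolayer and 36.0% in primary cells. The ratio of Col11a1 to Col11a2 was 0.0103 ± 0.000231 in spheres, 1268 ± 217 in monolayer and 362 ± 71.3 in primary cells. Another cartilage collagen was lower. Col2a1, the main chain of cartilage, had 6 counts in the sphere group, 116 in monolayer and 294 in primary cells, and was lower in spheres than in both (edgeR adjusted p = 5.28e-10 and 5.82e-13). With so few sphere counts, Col2a1 passed the filter only through the other groups. Of the chondrocyte markers, 8 of 9 were found, and their sum was 181 to 191 CPM in spheres, 66.6 to 71.2 CPM in monolayer and 72.6 to 75.8 CPM in primary cells. Most of it was Hapln1 and Sox9, both highest in spheres, while 4 of the 8 were highest in primary cells and 2 in monolayer. The defining markers Acan and Matn1 were at or near 0. Acan had 7 counts in spheres, 1 in monolayer and 35 in primary cells, and Matn1 had 0 in spheres, 0 in monolayer and 1 in primary cells.

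The start regions of both type XI genes are shown because their transcripts differed in opposite directions. The windows span 250 bases before to 50 bases after the RefSeq start on GRCm38.p6, both on the plus strand. Capitals mark GGGCGG, the motif CCAAT and the motif TATAAA on either strand, where CCGCCC stands for GGGCGG on the opposite strand, ATTGG for CCAAT and TTTATA for TATAAA.
Col11a1, chr3:114030290-114030589: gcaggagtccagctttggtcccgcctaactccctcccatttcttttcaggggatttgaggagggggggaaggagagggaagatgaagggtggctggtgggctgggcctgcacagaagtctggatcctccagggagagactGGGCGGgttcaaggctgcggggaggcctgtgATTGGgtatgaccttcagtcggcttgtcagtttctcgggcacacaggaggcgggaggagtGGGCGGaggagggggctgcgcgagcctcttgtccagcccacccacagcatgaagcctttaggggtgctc
Col11a2, chr17:34038888-34039187: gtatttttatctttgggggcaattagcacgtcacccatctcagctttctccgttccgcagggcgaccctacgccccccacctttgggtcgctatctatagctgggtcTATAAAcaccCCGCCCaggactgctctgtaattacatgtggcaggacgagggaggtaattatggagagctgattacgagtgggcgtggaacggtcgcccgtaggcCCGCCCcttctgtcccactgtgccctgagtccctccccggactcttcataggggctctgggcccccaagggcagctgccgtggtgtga
The Col11a1 window held GGGCGG 2 times, first bases at -110 and -19 from the start, and CCAAT on the opposite strand at -79, and no TATAAA. The Col11a2 window held TATAAA at -143 and GGGCGG on the opposite strand at -133 and -38, and no CCAAT. The RefSeq start of Col11a2 used here (34039138) lies upstream of the gene start in the count table (34039437). Among 32851 windows of this length, 13.6% held TATAAA, 37.4% CCAAT and 35.7% GGGCGG. Windows were at hand for 35 of the 44 genes, of which 5 held TATAAA, 13 CCAAT and 22 GGGCGG.

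The remaining fibrillar chains, Col24a1 and Col27a1, have shorter helices. In mice, Col24a1 is expressed in bone-forming cells and Col27a1 in cartilage. Col24a1 stood at 70.2, 66.5 and 68.2 CPM in spheres, 51.3, 55.0 and 49.2 CPM in monolayer and 5.17, 4.53 and 4.34 CPM in primary cells. It was 1.32-fold higher in spheres than in monolayer (log2 change 0.40 ± 0.049 (SE), edgeR adjusted p = 4.36e-08) and 14.6-fold higher than in primary cells (log2 change 3.87 ± 0.064 (SE), edgeR adjusted p = 1.08e-26). Monolayer exceeded primary cells by 11.1-fold, so both cultures were above primary cells. Col27a1 stood at 29.6, 31.4 and 32.0 CPM in spheres, 64.0, 60.9 and 63.1 CPM in monolayer and 88.3, 87.5 and 91.3 CPM in primary cells. Its order was the reverse, lowest in spheres and highest in primary cells, with spheres 2.02-fold below monolayer and 2.87-fold below primary cells.

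**Figure D3:**
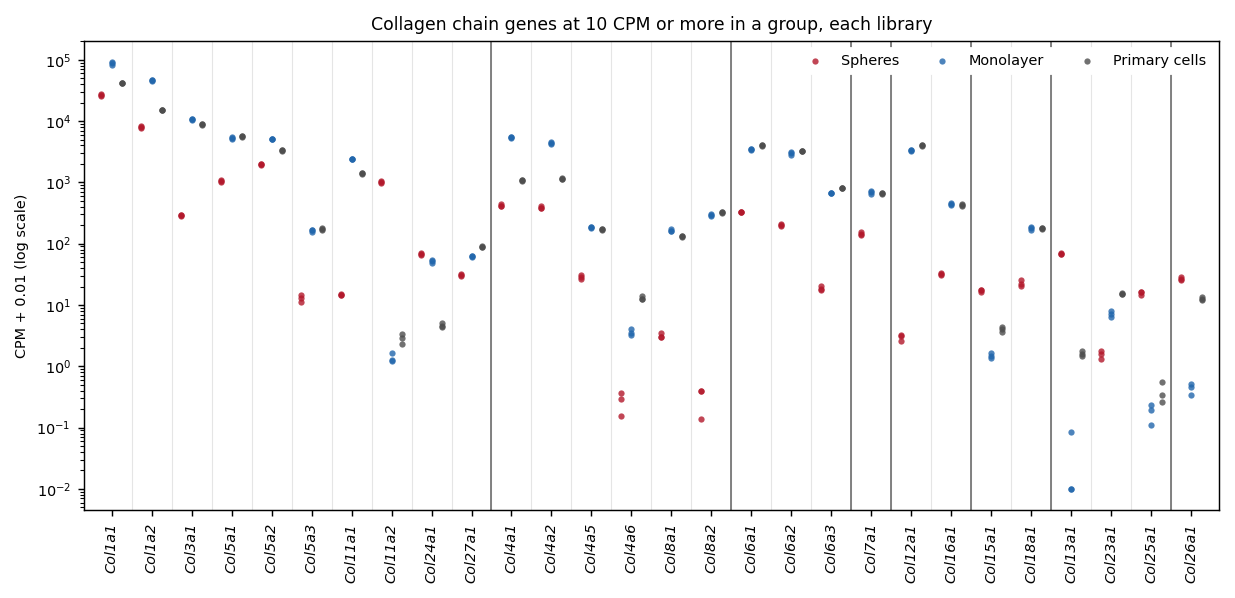
CPM + 0.01 on a log scale for the 28 collagen chain genes whose mean reached 10 CPM in a group, 1 point per library, separated by class with dark lines. Sphere points lie lowest in most genes and highest in Col11a2, Col24a1, Col15a1, Col13a1, Col25a1 and Col26a1.

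Of the 9 network-forming chain genes, 7 were tested. In both comparisons 6 were lower and 1 was higher in spheres. In monolayer against primary cells 4 were higher, 2 lower and 1 did not pass, where 34.4% of all tested genes were higher and 36.9% lower. Scaling by total counts turned this last split to 2 higher and 3 lower. Col4a1 and Col4a2 form the type IV network of nearly all basement membranes. Col4a1 stood at 404, 413 and 438 CPM in spheres, 5479, 5221 and 5493 CPM in monolayer and 1107, 1052 and 1096 CPM in primary cells. Col4a2 stood at 384, 387 and 407 CPM in spheres, 4469, 4189.7 and 4596 CPM in monolayer and 1148, 1139 and 1163 CPM in primary cells. Both were highest in monolayer and lowest in spheres, without overlap. Against monolayer, spheres were 12.9-fold lower in Col4a1 (log2 change -3.69 ± 0.034 (SE), edgeR adjusted p = 3.01e-32) and 11.3-fold lower in Col4a2. Against primary cells, spheres were 2.59-fold lower in Col4a1 and 2.93-fold lower in Col4a2, and monolayer was 4.97-fold higher in Col4a1 and 3.84-fold higher in Col4a2 (edgeR adjusted p for Col4a1 = 1.67e-23 and 2.46e-27). The per-kilobase ratio of Col4a1 to Col4a2 was 1.04 ± 0.0113 in spheres, 1.19 ± 0.0250 in monolayer and 0.920 ± 0.0196 in primary cells. This ratio differed less between groups than the levels of both genes, which moved together, but its libraries did not overlap between groups. With the union of all exons as length it was 0.945 in spheres, 1.08 in monolayer and 0.837 in primary cells. The 6 endothelial markers summed to 0.974 to 1.21 CPM in spheres, 28.0 to 29.2 CPM in monolayer and 13.4 to 15.6 CPM in primary cells. Most of the sum in monolayer and primary cells was Kdr, which like Tek and Emcn was highest in monolayer, whereas Pecam1 was highest in spheres, and Cdh5 and Tie1 in primary cells. Pecam1 averaged 0.540 CPM in spheres, 0.0981 CPM in monolayer and 0.403 CPM in primary cells, the defining marker Cdh5 had 0 counts in spheres, 2 in monolayer and 44 in primary cells, and the part of endothelial cells in the type IV levels was not tested.

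The 6 type IV genes lie in head-to-head pairs on opposite strands. Col4a1 and Col4a2 overlap by 22 bases at their starts on chromosome 8, Col4a4 and Col4a3 lie 71 bases apart on chromosome 1, and Col4a6 and Col4a5 lie 1308 bases apart on chromosome X. The start windows of Col4a1 and Col4a2, from RefSeq on GRCm38.p6, are shown because their transcripts moved together and the windows share 78 bases. Capitals mark the same motifs as above. Col4a1 is read from the minus strand and Col4a2 from the plus strand.
Col4a1, chr8:11312777-11313076: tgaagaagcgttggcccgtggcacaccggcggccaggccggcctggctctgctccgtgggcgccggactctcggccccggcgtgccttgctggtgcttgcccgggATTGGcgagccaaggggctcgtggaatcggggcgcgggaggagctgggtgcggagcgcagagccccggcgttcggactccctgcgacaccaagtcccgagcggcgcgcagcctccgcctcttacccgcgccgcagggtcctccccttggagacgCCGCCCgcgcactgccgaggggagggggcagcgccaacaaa
Col4a2, chr8:11312555-11312854: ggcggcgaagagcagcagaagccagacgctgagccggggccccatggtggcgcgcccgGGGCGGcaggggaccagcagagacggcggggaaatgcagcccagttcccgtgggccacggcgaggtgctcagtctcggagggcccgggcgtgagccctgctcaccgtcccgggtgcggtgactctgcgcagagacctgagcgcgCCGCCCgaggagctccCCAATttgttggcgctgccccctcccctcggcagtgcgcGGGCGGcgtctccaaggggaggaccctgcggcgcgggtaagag
The Col4a1 window held CCAAT on the opposite strand at -145 and GGGCGG on the opposite strand at 9. The Col4a2 window held GGGCGG at -192 and 7 and on the opposite strand at -48, and CCAAT at -32. GGGCGG at 9 in Col4a1 and at 7 in Col4a2 is the same site, within the shared bases. TATAAA was in neither window.

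In each of the other type IV pairs, both genes were on the same side in spheres against both other groups, Col4a5 and Col4a6 lower, Col4a4 and the rare Col4a3 higher. Col4a5, a chain of kidney and smooth muscle basement membranes, stood at 28.9, 27.0 and 30.3 CPM in spheres, 189, 186 and 183 CPM in monolayer and 177, 165 and 171 CPM in primary cells. It was 6.47-fold lower in spheres than in monolayer and 5.95-fold lower than in primary cells (edgeR adjusted p = 2.77e-27 and 9.52e-27). Its neighbour Col4a6, which joins Col4a5 in smooth muscle basement membranes, stood at 0.283, 0.351 and 0.147 CPM in spheres, 3.43, 4.12 and 3.22 CPM in monolayer and 13.8, 12.5 and 12.6 CPM in primary cells. Primary cells were highest in Col4a6, 3.62-fold above monolayer, whereas Col4a5 was 1.09-fold higher in monolayer (log2 change 0.12, edgeR adjusted p = 0.00614). That small difference in Col4a5 was no longer called without primary library 2 (adjusted p = 0.0587) and turned to -0.18 when scaled by total counts. Col4a4, a chain of the kidney filter, was low in all groups, with 3.04 ± 0.485 CPM in spheres, 0.955 ± 0.217 CPM in monolayer and 1.10 ± 0.148 CPM in primary cells (SD). In spheres it was 3.19-fold higher than in monolayer and 2.77-fold higher than in primary cells (edgeR adjusted p = 3.81e-08 and 1.33e-07). Its neighbour Col4a3 did not pass the filter, so it was not tested, and had 30 counts in spheres, 8 in monolayer and 0 in primary cells. The ratio of its summed counts in spheres to those in monolayer, corrected for library size, was 3.19 (95% exact interval 1.43 to 8.06). Against primary cells, 3 counts over the primary group were taken as the limit that a count of 0 allows. The mean level of Col4a3 in spheres was 10.5-fold above that limit, which leaves out the counting error of the 30 sphere counts. Of the Col4a3 span, 22.4% overlaps another entry.

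Type VIII collagen, a short-chain network in vessel walls and beneath corneal endothelium, was at low levels in spheres. Col8a1 stood at 2.96, 3.45 and 2.96 CPM in spheres, 163, 173 and 164 CPM in monolayer and 136, 129.6 and 133 CPM in primary cells. Its decrease in spheres was 53.4-fold against monolayer (log2 change -5.73 ± 0.056 (SE), edgeR adjusted p = 8.5e-32) and 42.5-fold against primary cells. Col8a2 stood at 0.129, 0.390 and 0.386 CPM in spheres, 297, 288 and 305 CPM in monolayer and 333, 312 and 325 CPM in primary cells. In spheres Col8a2 was 985-fold lower than in monolayer (log2 change -9.85 ± 0.085 (SE), edgeR adjusted p = 6.82e-33) and 1071-fold lower than in primary cells (log2 change -9.98 ± 0.085 (SE), edgeR adjusted p = 7.06e-33). The sphere group had 46 counts of Col8a2 in all, against 36510 in monolayer and 47933 in primary cells. The per-kilobase ratio of Col8a1 to Col8a2 was 19.5, 7.51 and 6.50 in spheres, 0.466, 0.509 and 0.455 in monolayer and 0.345, 0.353 and 0.346 in primary cells. The first sphere library stood apart in this ratio, which rests there on the fewest Col8a2 counts. In log2 units, spheres differed from monolayer by 4.37 ± 0.87 (SD of the difference), and by 3.88 without the first sphere library. Between monolayer and primary cells, Col8a1 was 1.26-fold higher and Col8a2 1.09-fold lower. The first lost its call when scaled by total counts (log2 change 0.033), and the other without primary library 1 (adjusted p = 0.0567) or with RLE size factors (0.0646).

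All 5 tested genes of the beaded filament class, type VI collagen, were lower in spheres than in both other groups, and all 5 beyond 2-fold. Of all tested genes, 15.4% were lower beyond 2-fold against monolayer and 16.5% against primary cells. Col6a4 and Col6a5, with 4 counts and 1 count in spheres, passed the filter only through the other groups. Hardly any outcome other than a lower call was open to them. Type VI microfibrils surround cells in most connective tissues, and Col6a1, Col6a2 and Col6a3 are their usual chains. Col6a1 stood at 328, 335 and 323 CPM in spheres, 3533, 3319 and 3543 CPM in monolayer and 4029, 3995 and 4041 CPM in primary cells. Col6a2 stood at 196, 201 and 206 CPM in spheres, 3062, 2843 and 3164 CPM in monolayer and 3239, 3189.99 and 3302 CPM in primary cells. Spheres were lowest and primary cells highest in both chains, without overlap. In Col6a1, spheres were 10.6-fold below monolayer and 12.2-fold below primary cells, and in Col6a2 15.0-fold below monolayer and 16.1-fold below primary cells. Col6a3, the largest of these chains, stood at 20.7, 18.5 and 17.3 CPM in spheres, 672, 683 and 683 CPM in monolayer and 811, 816 and 820.2 CPM in primary cells. Its decrease in spheres was larger, 36.1-fold against monolayer (log2 change -5.18 ± 0.045 (SE), edgeR adjusted p = 7.6e-33) and 43.3-fold against primary cells (log2 change -5.44 ± 0.045 (SE), edgeR adjusted p = 4.75e-33). The ratio of Col6a3 to Col6a1 per kilobase was 0.0261 ± 0.00233 in spheres, 0.0894 ± 0.00383 in monolayer and 0.0924 ± 0.000651 in primary cells. That of Col6a1 to Col6a2 was 1.57 ± 0.0566 in spheres, 1.10 ± 0.0237 in monolayer and 1.19 ± 0.0142 in primary cells. Monolayer and primary cells were close in these 3 chains, with log2 changes of -0.21 for Col6a1, -0.10 for Col6a2 and -0.26 for Col6a3, each called lower in monolayer. The call of Col6a2 was lost without monolayer library 2 (adjusted p = 0.0524), with RLE size factors (0.0801) and with DESeq2 (0.109).

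The alternative type VI chains were rare. Col6a4 had 4 counts in spheres, 182 in monolayer and 138 in primary cells. Its fitted log2 change in spheres against monolayer was -5.60, and -6.93 or -5.01 without sphere library 1 or 2. Against primary cells the fitted change was -4.93, and -6.26 or -4.34 without the same libraries. Col6a5 had 1 count in spheres, 57 in monolayer and 22 in primary cells. The ratio of Col6a5 in spheres to monolayer was 0.0149 (95% exact interval 0.000371 to 0.0866), and that to primary cells was 0.0467 (95% exact interval 0.00113 to 0.289). Intervals of this kind cover counting error only. Both genes were called higher in monolayer than in primary cells, with log2 changes of 0.67 ± 0.27 and 1.64 ± 0.49 (SE). The call of Col6a4 was lost when any of 5 libraries, monolayer 1 or 2 or any primary library, was left out (adjusted p = 0.0516 to 0.123), and under scaling by total counts (0.217). Col6a6 did not pass the filter, with 1 count in spheres, 1 in monolayer and 4 in primary cells.

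Col7a1 encodes type VII collagen, which forms the anchoring fibrils beneath skin epithelium. Its libraries stood at 143, 141 and 156 CPM in spheres, 688, 648 and 716 CPM in monolayer and 663, 641 and 663 CPM in primary cells. In spheres it was 4.66-fold lower than in monolayer (log2 change -2.22 ± 0.04 (SE), edgeR adjusted p = 3.91e-26) and 4.47-fold lower than in primary cells (log2 change -2.16 ± 0.039 (SE), edgeR adjusted p = 9.07e-26). Monolayer and primary libraries overlapped, with a log2 change of 0.061 ± 0.037 that did not pass (edgeR adjusted p = 0.146). It was called higher in monolayer without monolayer library 2 (0.0125), with RLE size factors (0.0202) and with DESeq2 (0.023), and lower, at -0.24, when scaled by total counts.

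Of the 9 FACIT genes, whose products sit on fibrils of other collagens, 7 were tested. Against monolayer, 3 were lower in spheres, 1 was higher and 3 did not pass. Against primary cells, 5 were lower, 1 was higher and 1 did not pass. Col12a1 (chromosome 9, 79598991 to 79718831), which binds type I fibrils in dense connective tissue, stood at 3.14, 3.27 and 2.59 CPM in spheres, 3396, 3405 and 3308 CPM in monolayer and 4033, 4025 and 3991 CPM in primary cells. In spheres it was 1123-fold lower than in monolayer (log2 change -10.14 ± 0.05 (SE), edgeR adjusted p = 1.59e-37) and 1338-fold lower than in primary cells (log2 change -10.39 ± 0.05 (SE), edgeR adjusted p = 2.06e-37), the largest decreases of any tested collagen chain gene. Per kilobase it ranked 11th of the collagen chains in monolayer and 8th in primary cells, at 293 and 349 CPM per kb. Col16a1, a FACIT found near basement membranes and on microfibrils, stood at 30.4, 31.7 and 32.8 CPM in spheres, 444, 421 and 456 CPM in monolayer and 431, 413 and 437 CPM in primary cells. It was 13.9-fold lower in spheres than in monolayer and 13.5-fold lower than in primary cells (edgeR adjusted p = 6.28e-31 and 1.05e-30). Its monolayer and primary libraries overlapped (log2 change 0.045, adjusted p = 0.254), with a higher call without monolayer library 2 (0.0363), with RLE size factors (0.0358) and with DESeq2 (0.0371), and a lower call, at -0.25, when scaled by total counts.

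The other FACIT genes were under 10 CPM in every group. Col9a2, a chain of cartilage type IX collagen, averaged 0.590 ± 0.165 CPM in spheres, 2.79 ± 0.233 CPM in monolayer and 5.66 ± 0.388 CPM in primary cells, and was 4.73-fold lower in spheres than in monolayer and 9.59-fold lower than in primary cells (edgeR adjusted p = 6.03e-11 and 2.89e-15). Col9a3, its partner, averaged 0.998 ± 0.530 CPM in spheres, 0.843 ± 0.0835 CPM in monolayer and 1.67 ± 0.0849 CPM in primary cells. Sphere and monolayer libraries of Col9a3 overlapped (log2 change 0.28, adjusted p = 0.389). Without sphere library 1 that change was called higher, at 0.61. Col9a3 was called lower in spheres than in primary cells (adjusted p = 0.0195), but not without sphere library 1 (0.126) or primary library 3 (0.0563). Col9a1 did not pass the filter, with 0 counts in spheres, 8 in monolayer and 14 in primary cells.

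Col22a1, a collagen of muscle-tendon junctions, was the FACIT gene higher in spheres. It averaged 1.62 ± 0.247 CPM in spheres, 0.348 ± 0.0650 CPM in monolayer and 0.487 ± 0.171 CPM in primary cells. The changes were 4.66-fold against monolayer and 3.33-fold against primary cells (edgeR adjusted p = 3.28e-07 and 3.6e-06). Col20a1 averaged 1.52 ± 0.157 CPM in spheres, 1.24 ± 0.444 CPM in monolayer and 2.74 ± 0.130 CPM in primary cells. It was 1.81-fold lower in spheres than in primary cells (adjusted p = 0.000255), and against monolayer it did not pass (0.179), except without monolayer library 3 (0.0127) or with scaling by total counts (0.00973), where it was called higher. Col14a1, which like Col12a1 binds type I fibrils, had 22 counts in spheres, 36 in monolayer and 40 in primary cells. It passed in no comparison, except lower in spheres against primary cells without primary library 1 (0.0456). Col19a1 did not pass the filter, with 0 counts in spheres, 11 in monolayer and 5 in primary cells. In monolayer against primary cells, Col9a2, Col9a3, Col12a1 and Col20a1 were called lower and the other 3 tested FACIT genes did not pass, except that Col22a1 was called lower when scaled by total counts (log2 change -0.77, adjusted p = 0.0491) and Col16a1 was called as given above.

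The multiplexins Col15a1 and Col18a1, both proteoglycans of basement membranes, changed in opposite directions in spheres. Col15a1 stood at 16.4, 17.8 and 17.6 CPM in spheres, 1.46, 1.62 and 1.37 CPM in monolayer and 4.36, 3.57 and 4.04 CPM in primary cells. It was 11.6-fold higher in spheres than in monolayer (log2 change 3.53 ± 0.11 (SE), edgeR adjusted p = 1.97e-20) and 4.32-fold higher than in primary cells (log2 change 2.11 ± 0.093 (SE), edgeR adjusted p = 3.36e-17). Col18a1, whose product is the source of endostatin, stood at 20.4, 25.3 and 22.1 CPM in spheres, 182, 167 and 189.8 CPM in monolayer and 178, 173 and 180.5 CPM in primary cells. It was 7.95-fold lower in spheres than in monolayer (log2 change -2.99 ± 0.06 (SE), edgeR adjusted p = 8.84e-20) and 7.85-fold lower than in primary cells (log2 change -2.97 ± 0.06 (SE), edgeR adjusted p = 1.05e-19). Monolayer and primary libraries overlapped in Col18a1 (log2 change 0.019, adjusted p = 0.755, and -0.28 with a lower call when scaled by total counts), while Col15a1 was 2.68-fold lower in monolayer.

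The 4 transmembrane collagens split between the directions, with 3 higher and 1 lower against monolayer and 2 higher and 2 lower against primary cells. Col13a1 (chromosome 10, 61838236 to 61979108), found at cell contacts and at the neuromuscular junction, stood at 69.8, 67.3 and 68.4 CPM in spheres, 0, 0.0749 and 0 CPM in monolayer and 1.78, 1.49 and 1.57 CPM in primary cells. The sphere group had 9893 counts, against 3 in monolayer, all in library 2, and 239 in primary cells. The ratio of Col13a1 in spheres to monolayer was 2806 (95% exact interval 959.9 to 13610). The fitted log2 change was 11.30 ± 0.16 (SE, edgeR adjusted p = 3.68e-28), and 14.65 without monolayer library 2. Against primary cells Col13a1 was 42.5-fold higher in spheres (log2 change 5.41 ± 0.085 (SE), edgeR adjusted p = 3.76e-27). In monolayer it was lower than in primary cells, with a ratio of 0.0152 (95% exact interval 0.00310 to 0.0448). Per kilobase it ranked 11th of the collagen chains in spheres, at 21.7 CPM per kb.

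The start window of Col13a1, from RefSeq on GRCm38.p6 and read from the minus strand, is shown because its level differed most between spheres and monolayer. Capitals mark TATAAA.
Col13a1, chr10:61979059-61979358: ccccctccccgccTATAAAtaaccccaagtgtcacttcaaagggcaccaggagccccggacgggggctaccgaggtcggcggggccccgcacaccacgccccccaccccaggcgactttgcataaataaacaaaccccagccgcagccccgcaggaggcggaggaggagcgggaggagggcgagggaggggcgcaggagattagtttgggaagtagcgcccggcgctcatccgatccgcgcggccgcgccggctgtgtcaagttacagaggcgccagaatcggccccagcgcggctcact
This window held TATAAA at -237 and neither CCAAT nor GGGCGG.

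Col25a1, a membrane collagen needed for motor innervation of muscle in mice, stood at 16.5, 16.0 and 14.6 CPM in spheres, 0.221, 0.0998 and 0.185 CPM in monolayer and 0.335, 0.255 and 0.542 CPM in primary cells. It was 93.0-fold higher in spheres than in monolayer (log2 change 6.50 ± 0.19 (SE), edgeR adjusted p = 4.43e-21) and 41.6-fold higher than in primary cells (log2 change 5.37 ± 0.16 (SE), edgeR adjusted p = 6.57e-21). Its lower call in monolayer against primary cells (log2 change -1.13, adjusted p = 0.00952) was lost without monolayer library 2 (0.0567) or primary library 3 (0.0937). Col23a1 stood at 1.31, 1.58 and 1.78 CPM in spheres, 6.27, 7.14 and 7.85 CPM in monolayer and 15.4, 15.1 and 15.7 CPM in primary cells. It was lowest in spheres, 4.55-fold below monolayer and 9.87-fold below primary cells (edgeR adjusted p = 1.02e-14 and 1.45e-19). Col17a1, the collagen of epithelial hemidesmosomes, averaged 0.341 ± 0.167 CPM in spheres, 0.129 ± 0.0222 CPM in monolayer and 8.26 ± 0.258 CPM in primary cells. Primary cells were thus highest, with spheres 24.3-fold lower and monolayer 63.8-fold lower, and spheres were 2.63-fold higher than monolayer (edgeR adjusted p = 0.00274). That last change rests on few counts, 6, 20 and 26 in the sphere libraries and 6, 6 and 4 in the monolayer libraries. It did not pass beyond 2-fold (glmTreat adjusted p = 0.172). The 8 epithelial markers were all found and summed to 53.8 to 58.3 CPM in spheres, 0.724 to 0.997 CPM in monolayer and 187 to 193 CPM in primary cells. Of them 7 were highest in primary cells, and Epcam was highest in spheres, at 42.9 CPM in spheres, 0.0254 CPM in monolayer and 2.87 CPM in primary cells. Their part in the Col17a1 level was not tested.

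Col26a1, an EMI domain protein with collagen repeats, stood at 25.8, 26.7 and 28.5 CPM in spheres, 0.332, 0.449 and 0.502 CPM in monolayer and 12.5, 13.4 and 12.2 CPM in primary cells. It was 63.1-fold higher in spheres than in monolayer (log2 change 5.99 ± 0.12 (SE), edgeR adjusted p = 7.02e-25) and 2.13-fold higher than in primary cells (log2 change 1.09 ± 0.068 (SE), edgeR adjusted p = 7.43e-14). The lowest group was the monolayer, 29.7-fold below primary cells. Col28a1, a collagen of peripheral nerve in mice, averaged 0.215 ± 0.0527 CPM in spheres, 0.565 ± 0.106 CPM in monolayer and 1.01 ± 0.197 CPM in primary cells, and was 2.63-fold lower in spheres than in monolayer and 4.72-fold lower than in primary cells (edgeR adjusted p = 0.00187 and 2.21e-06). Its lower call in monolayer against primary cells (0.0168) was lost without monolayer library 1 or 2 or primary library 1 (0.0575, 0.0572 and 0.0884). The 6 glial and neuronal markers summed to 3.24 to 3.65 CPM in spheres, 25.9 to 28.8 CPM in monolayer and 15.3 to 18.0 CPM in primary cells. Mbp held most of the sum in monolayer and primary cells and was highest in monolayer. Of the others, 4 were highest in primary cells, and Tubb3, which lies wholly inside another gene, was listed at 0. The part of glial and neuronal cells in the Col28a1 level was not tested.

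Per kilobase, Col1a1 was first and Col1a2 the second of the collagen chains in all groups. In spheres they were followed by Col5a2, Col11a2 and Col5a1, at 294, 187 and 125 CPM per kb. In monolayer the next were Col3a1, Col6a1 and Col4a1, at 1927, 845 and 816 CPM per kb, and Col6a1 and Col4a1 did not differ beyond their SD. In primary cells they were Col3a1, Col6a1 and Col6a2, at 1589, 981 and 821 CPM per kb. Col3a1 ranked 9th in spheres, at 52.2 CPM per kb. Col1a1 alone held 64.5% of the summed collagen level per kilobase in spheres, 47.5% in monolayer and 44.4% in primary cells. The limit on reads in introns given above applies to these ranks and shares.

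**Figure D4:**
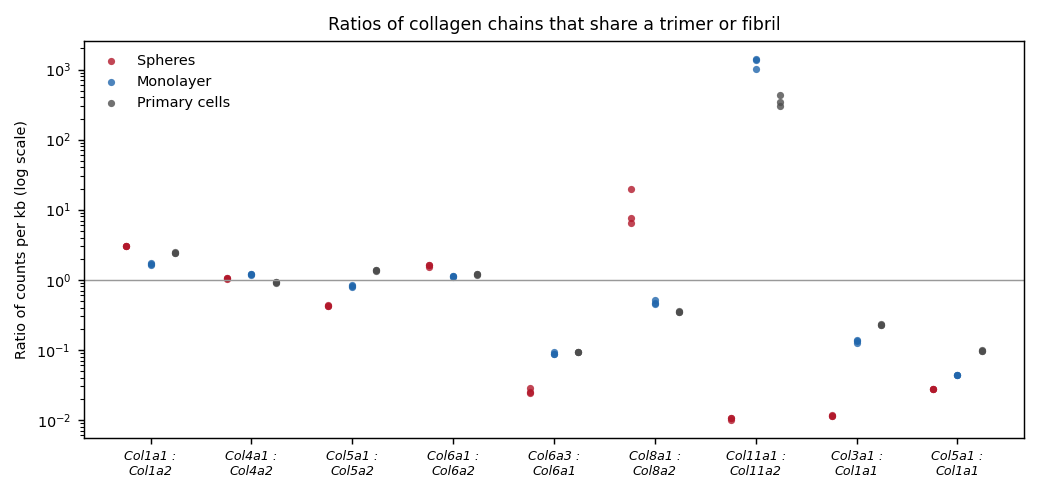
Ratio of counts per kilobase (log scale) for 9 pairs of chains that share a trimer or a fibril, 1 point per library and a line at 1. Ratios of Col11a1 to Col11a2 lie near 0.01 in spheres and above 300.4 in all libraries of the other groups, and Col8a1 to Col8a2 is the one pair with widely spread sphere libraries.

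Genes that make, process, bind and break down collagen were taken from 5 lists of 56 genes, of which 55 were found and 52 tested. Of all tested genes, 40.7% were higher and 37.7% lower in spheres against monolayer, and 38.9% and 40.6% in spheres against primary cells. In monolayer against primary cells the shares were 34.4% higher and 36.9% lower. The counts of each list stand beside these shares, and no list was tested as a set. Folding and hydroxylation genes modify chains in the endoplasmic reticulum. Of 18 tested, 12 were lower and 4 higher in spheres than in monolayer, 9 lower and 4 higher than in primary cells, and 10 were higher and 7 lower in monolayer than in primary cells. The median log2 changes were -0.42 in spheres against monolayer, -0.12 in spheres against primary cells and 0.14 in monolayer against primary cells. Scaling by total counts, which shifts all genes as given above, turned the first split to 6 higher and 9 lower and the last to 7 higher and 10 lower. P4ha3, a prolyl 4-hydroxylase subunit, averaged 0.159 ± 0.0147 CPM in spheres, 78.2 ± 3.00 CPM in monolayer and 28.1 ± 1.07 CPM in primary cells, a decrease in spheres of 492-fold against monolayer and 177-fold against primary cells (edgeR adjusted p = 2.7e-30 and 3.17e-27). The related subunit P4ha1 averaged 358 ± 7.35 CPM in spheres, 119 ± 0.512 CPM in monolayer and 213 ± 3.63 CPM in primary cells, an increase of 3.01-fold against monolayer and 1.68-fold against primary cells. P3h2, a prolyl 3-hydroxylase that acts on type IV chains, was higher in spheres by 192-fold against monolayer and 8.59-fold against primary cells (edgeR adjusted p = 1.83e-27 and 6.94e-24). Plod2, which hydroxylates lysines of the telopeptides used in crosslinks, was higher in spheres by 2.32-fold against monolayer and 2.44-fold against primary cells. Fkbp14, a prolyl isomerase, was 2.44-fold higher in monolayer than in primary cells (edgeR adjusted p = 3.39e-19).

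Of the 6 genes for secretion and regulation of collagen, 5 were tested. In spheres 1 was higher and 4 were lower than in monolayer, and 3 were higher and 2 lower than in primary cells, and in monolayer 4 were higher than in primary cells and 1 did not pass. Over all tested genes, 78.4%, 79.6% and 71.3% were called in either direction in these comparisons, in that order. The medians in log2 units were -0.38, 0.15 and 0.56 in spheres against monolayer, spheres against primary cells and monolayer against primary cells, in that order. Scaling by total counts turned the first split to 2 higher and 2 lower and the last to 4 higher and 1 lower, beside the shift of all genes given above. Creb3l1, a transcription factor that activates type I collagen genes in osteoblasts, averaged 959 ± 19.7 CPM in spheres, 602 ± 43.5 CPM in monolayer and 322 ± 3.45 CPM in primary cells. It was 1.59-fold higher in spheres than in monolayer and 2.98-fold higher than in primary cells (edgeR adjusted p = 6.55e-15 and 7.64e-23). In both comparisons this direction is opposite to that of the type I chains. In monolayer, Creb3l1 was 1.87-fold higher than in primary cells, the same direction as both type I chains. Sec23a and Sec24d, coat proteins of the vesicles that carry procollagen, differed by less than 2-fold in every comparison.

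Among 13 genes of procollagen processing and crosslinking, 12 were tested, with 5 higher and 7 lower in spheres in both comparisons and 11 higher in monolayer than in primary cells. Over all tested genes, 78.4% were called in spheres against monolayer and 79.6% against primary cells. In monolayer against primary cells, 34.4% of all tested genes were higher and 36.9% lower. Median log2 changes were -1.82 in spheres against monolayer, -1.13 in spheres against primary cells and 0.76 in monolayer against primary cells. With scaling by total counts, 9 were called higher there and none lower. The genes of the lysyl oxidase family that were named by smallest adjusted p were lower in spheres. Lox, the main crosslinking enzyme, averaged 567 ± 6.05 CPM in spheres, 4614 ± 50.7 CPM in monolayer and 2646 ± 10.4 CPM in primary cells, a decrease of 8.13-fold against monolayer and 4.67-fold against primary cells (edgeR adjusted p = 1.05e-32 and 5.2e-30). Loxl3 was lower by 24.5-fold against monolayer and 6.23-fold against primary cells. Loxl2 was lower by 6.67-fold against monolayer and 3.36-fold against primary cells. Adamts2, the protease that removes the amino-terminal propeptide, averaged 1637 ± 54.7 CPM in spheres, 662 ± 22.4 CPM in monolayer and 335 ± 2.51 CPM in primary cells, an increase of 2.47-fold against monolayer and 4.89-fold against primary cells (edgeR adjusted p = 3.53e-23 and 3.45e-28).

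Collagen receptor genes numbered 10, of which 8 were tested. Spheres had 2 above and 6 below monolayer, and 3 above and 5 below primary cells, while monolayer had 5 above and 3 below primary cells. Over all tested genes, 78.4%, 79.6% and 71.3% were called in either direction in these comparisons, in that order. The medians in log2 units were -1.04, -0.37 and 0.61 in spheres against monolayer, spheres against primary cells and monolayer against primary cells, in that order. The integrin alpha chains that bind collagen changed in opposite directions. Itga2 averaged 96.5 ± 4.62 CPM in spheres, 0.445 ± 0.0426 CPM in monolayer and 0.650 ± 0.131 CPM in primary cells, and was higher in spheres by 217-fold against monolayer and 148-fold against primary cells (edgeR adjusted p = 1.09e-29 and 8.67e-30). Itga11, the main fibrillar collagen receptor of mesenchymal cells, averaged 1.18 ± 0.247 CPM in spheres, 395 ± 11.5 CPM in monolayer and 92.3 ± 0.783 CPM in primary cells, and was lower in spheres by 334-fold against monolayer and 78.1-fold against primary cells (edgeR adjusted p = 7.35e-34 and 9.74e-31). Itga10 was 4.94-fold and Itga1 6.39-fold lower in spheres than in monolayer. Mrc2, an endocytic collagen receptor, was 1.77-fold higher in monolayer than in primary cells.

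All 9 collagen degradation genes were tested, and spheres had 2 above and 6 below monolayer, and 5 above and 3 below primary cells, while monolayer had 8 above and 1 below primary cells. Over all tested genes, 78.4% were called in spheres against monolayer and 79.6% against primary cells. In monolayer against primary cells, 34.4% of all tested genes were higher and 36.9% lower. The list had median log2 changes of -0.25, 0.96 and 1.37 in spheres against monolayer, spheres against primary cells and monolayer against primary cells, in that order. Scaling by total counts turned the first split to 5 higher and 4 lower, beside the shift of all genes given above. Mmp13, a secreted collagenase of bone and cartilage, averaged 14.5 ± 0.936 CPM in spheres, 721 ± 41.0 CPM in monolayer and 120.2 ± 1.10 CPM in primary cells, a decrease in spheres of 49.7-fold against monolayer and 8.29-fold against primary cells (edgeR adjusted p = 8.18e-33 and 2.78e-27). Mmp16, a membrane-bound protease, averaged 225 ± 5.45 CPM in spheres, 3.24 ± 0.20 CPM in monolayer and 4.80 ± 0.610 CPM in primary cells, an increase of 69.4-fold against monolayer and 46.8-fold against primary cells (edgeR adjusted p = 2.53e-31 and 4.52e-31). Ctsk, which degrades type I collagen in lysosomes and in bone resorption, was 6.19-fold higher in spheres and 6.63-fold higher in monolayer than in primary cells. Mmp2 was 2.58-fold higher in monolayer than in primary cells, and Pepd was 1.61-fold lower in spheres than in monolayer.

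Markers of other cells that the cultures could hold moved between groups as well. Macrophage markers summed to 37.8 to 40.2 CPM in spheres, 9.30 to 10.5 CPM in monolayer and 18.7 to 20.3 CPM in primary cells, and 4 of the 6 were highest in spheres. Lyz2 held most of the sum in spheres, at 27.4 CPM. Csf1r and Aif1 were lowest in spheres and highest in monolayer. Csf1r averaged 1.64 CPM in spheres, 3.86 CPM in monolayer and 2.82 CPM in primary cells. Aif1 had 2 counts in spheres, 27 in monolayer and 24 in primary cells. Pericyte and smooth muscle markers summed to 506 to 549.5 CPM in spheres, 1294 to 1352 CPM in monolayer and 2267 to 2289 CPM in primary cells. Of these 6, Acta2 and Myh11 were highest in primary cells, Rgs5 in monolayer, and the other 3 in spheres. Acta2 averaged 0.863 CPM in spheres, 1158 CPM in monolayer and 2068 CPM in primary cells, and Cspg4 averaged 521 CPM in spheres, 167 CPM in monolayer and 197 CPM in primary cells. The part of these cells, and of the odontoblast and osteoblast markers given above, in the collagen levels was not tested.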

How the data were processed

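The authors deposited 1 table of raw counts, whole numbers with a column for each of 9 libraries. The submitters' processing notes name fastp 0.20.0, HISAT2 2.1.0, featureCounts 1.6.0 and the build GRCm38. Strand setting, annotation release and library selection were not given in the sources used here. All 44 collagen chain genes have the same span in GENCODE M21.

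From these counts, edgeR 4.0.16 in R 4.3.3 was run with TMM scaling, filterByExpr (minimum count 10) and a robust quasi-likelihood fit of group means over all 9 libraries, which share 1 estimate of the spread. All genes left were tested, two-sided, with Benjamini-Hochberg adjustment per comparison. The biological coefficient of variation was 4.03%. SE is the absolute log2 change over the root of F. Per-kilobase values use the principal transcript (APPRIS) of GENCODE M21. Chain ratios were compared with exact permutation tests over libraries, and 1 of 10 pairs, Col9a1 to Col9a2, was left out for its low counts. Bounds and intervals use 3 counts over a group and a 95% level. Within groups, counts differed by more than sampling noise (chi-square per degree of freedom 2.58 to 10.3), so no library was counted as a copy of another. The fit was tested on simulated data.

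The genes and lists were chosen with earlier results of these data known. Values of every library are given for genes with at least 10 CPM in a group, and up to 3 genes per collagen pathway list and comparison are named by smallest adjusted p. Mia2 of those lists was not in the table under that name. Alternatives were other scalings, no filter, DESeq2 1.42.0, fits of 2 groups alone, a replicate block, genes without overlap, and each library left out. Exon union as length was added after seeing the data.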

Additional observations from a re-analysis of the deposited data

How the results depend on the processing

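Counts of collagen chain genes called higher, lower or beyond 2-fold stayed within 1.5 times under no filter, RLE size factors, DESeq2, total-count scaling, fits of 2 groups alone and leaving out each library. Restricting the table to genes that overlap no other gene left fewer collagen chain genes to test. It gave 3 higher, 12 lower and 13 beyond 2-fold in spheres against monolayer, 2 higher, 13 lower and 14 beyond 2-fold in spheres against primary cells, and 4 higher, 9 lower and 2 beyond 2-fold in monolayer against primary cells. Leaving out 1 library at a time gave 9 to 10 higher, 27 lower each time and 32 to 33 beyond 2-fold in spheres against monolayer. It gave 8 to 9, 29 to 31 and 32 to 33 in spheres against primary cells, and 11 to 14, 16 to 21 and 9 to 10 in monolayer against primary cells. The summed share of counts moved with its denominator. It was 8.65% in spheres, 30.1% in monolayer and 19.5% in primary cells over genes without overlap, and 4.11% in spheres, 18.0% in monolayer and 9.27% in primary cells over TMM library sizes. In monolayer against primary cells, total-count scaling reversed Col3a1 to -0.018, Col4a5 to -0.18, Col7a1 to -0.24, Col16a1 to -0.25 and Col18a1 to -0.28 in log2 units, and Col18a1 ranged from -0.021 without monolayer replicate 3 to 0.070 without monolayer replicate 2. That scaling shifts all genes by -0.296. Under it, Col14a1 in monolayer against primary cells also reversed, to -0.17. That change, which passed no test, ranged from -0.25 without primary replicate 1 to 0.39 without primary replicate 3. In spheres against monolayer, Col9a3 ranged from -0.055 without sphere replicate 2 to 0.61 without sphere replicate 1. Among log2 changes recomputed for the 39 tested genes, 1749 kept their direction and side of the threshold, 25 lost a call, 15 gained one and 9 reversed. All 189 chain ratios recomputed kept their direction, which a change of gene length alone cannot alter.

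With a replicate block, the counts were unchanged at 9 higher, 27 lower and 32 beyond 2-fold in spheres against monolayer, 8, 30 and 32 in spheres against primary cells, and 12, 20 and 10 in monolayer against primary cells. Equal replicate numbers did not deviate together (correlations -0.01 to 0.026), and not every library correlated best with its own number. Depth limits the genes with few counts, such as Col6a5, Col13a1 in monolayer and Col2a1 in spheres.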
